A study of Mus musculus with 9 samples.

Results

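Liver transcripts were compared between obese ob/ob mice given 100 mg/kg of a Vigna umbellata (rice bean) extract, called VE, and ob/ob mice given vehicle. The comparison takes the 3 arrays labelled as 100 mg/kg VE (VE100) and the 3 arrays labelled as vehicle, out of 9 arrays in the series, and covers the 21340 of 22206 probe sets that carry a single gene symbol. All mice were male C57BL/6JHamSlc-ob/ob from Japan SLC, 6 weeks old when obtained and acclimatised before dosing. They were fed standard chow and dosed by oral gavage for 42 days. The remaining 3 arrays are from ob/ob mice given VE at 50 mg/kg (VE50), and they enter here for the spread and for comparison of the doses. Every group lacks functional leptin, so the controls are themselves obese mice. The labels do not state that each array is a separate animal, and the wild-type mice of the study were not analysed here.

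Mice that lack leptin overeat and have high insulin, high corticosterone and a fatty liver. In hepatocytes, insulin keeps the transcription factor FOXO1 out of the nucleus and promotes glycogen and fat synthesis. Glucocorticoid hormones act through their receptor on a partly shared set of genes, and the circadian clock times much of the same metabolism. Resident macrophages of the liver, the Kupffer cells, carry out much of its innate immune surveillance. The comparison asks which transcripts differ in the liver at the higher dose of the extract.

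Values are log2 signals, and a difference is the VE100 mean less the vehicle mean with its standard error (SE) from limma, fitted to all 9 arrays. A gene is written as having risen or fallen where it passed the criterion used by the study, namely p below 0.05 before adjustment and more than a 1.1-fold change. Of the single-symbol probe sets, 2025 (9.49%) passed it, 1093 of them higher (5.12%) and 932 lower (4.37%). After Benjamini-Hochberg adjustment over all probe sets limma called 0 (0.0%), with a smallest adjusted p of 0.0868, so each gene below is past an unadjusted threshold only. All 3 VE100 arrays lay above all 3 vehicle arrays for 7.52% of the probe sets and below them for 6.08%, together 13.6%. These shares are the background for each list count and each statement below that arrays did not overlap. For the 15 highest and 15 lowest named differences, the choice itself required that VE100 and vehicle arrays did not overlap. For those genes it is no separate result. Differences past the criterion exceeded 1 on the log2 scale for 170 probe sets and lay below -1 for 248.

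**Figure D1:**
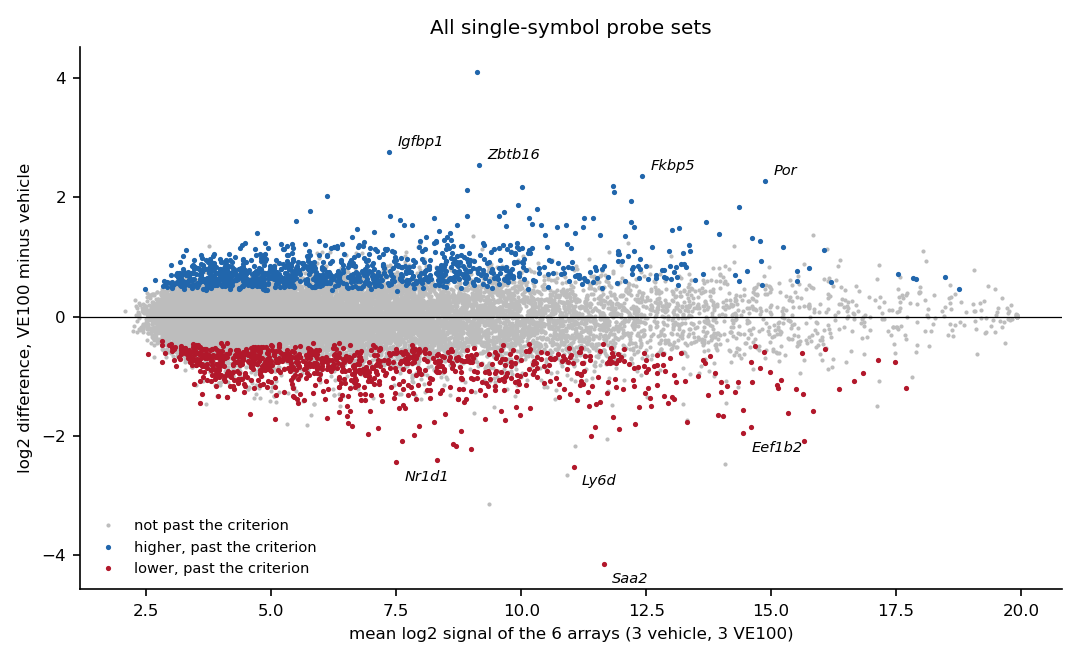
Each point is a single-symbol probe set, with its mean log2 signal over the 3 vehicle and 3 VE100 arrays on the horizontal axis and the log2 difference on the vertical axis. Blue points (1093) were higher and red points (932) lower past the study's criterion, and the rest are grey. Calls were made at every signal level, with Igfbp1 the highest of the labelled genes and Saa2 the lowest; the unlabelled highest point is a predicted gene, which the naming rule leaves unnamed.

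The arrays were not equally alike. Vehicle 3 correlated across genes with the other 5 arrays at 0.948 to 0.960, and the remaining pairs reached 0.990. It was the vehicle array farthest from the group median for 70.5% of the probe sets whose signal exceeded the negative controls. Without it, the numbers past the criterion were 1476 higher and 2058 lower, and limma called 416 probe sets after adjustment. The hybridization controls averaged 10.73 to 11.01 on the vehicle arrays and 11.15 to 11.44 on the VE100 arrays. Subtracting the median of positive controls from that of negative controls gave -3.88, -3.79 and -3.41 on vehicle 1, 2 and 3 and -3.46 to -3.12 on VE100. The hybridization controls thus separated the groups, while the control medians overlapped, with vehicle 3 inside the VE100 range. The part of these control values in the differences was not tested.

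How far a signal stood above the negative controls limits what a difference can mean. These controls are in the deposited value table, whose values lie a median of 0.49 above the signals printed here, and the comparison with them was made on that scale, where the 95th percentile of the controls was 9.10 to 9.76 by array. Of the 30 named extremes, 20 exceeded that limit on at least 1 array in both groups, 3 did so on no vehicle array and 7 on no VE100 array, so for those 10 the printed difference is between a measured level and one near background. Against the limit, Zbtb16 was at least 3.05-fold higher in VE100, Safb2 at least 1.40-fold and Igfbp1 at least 1.36-fold. Tnfrsf1a was at least 2.23-fold lower, Cd5l at least 2.06-fold, Spi1 at least 1.93-fold, St6gal1 at least 1.48-fold, Litaf at least 1.13-fold, Nr1d1 at least 1.12-fold and Tubb4b at least 1.01-fold. Among the other genes named below, Irs2, Akt2, Tsc1, Cry1, Nfil3, Lonrf3, Luc7l, Tuba1a, Adgre1, Xaf1, Ppp1r3g and Pygb exceeded the limit on no array of either group, and their differences are given with that limit and no fold. Foxo1, Clk1, Luc7l3, Rbm5 and Ndufb7 did so on no vehicle array, and Hmox1, Eif3i, Tubb5 and Mpeg1 on no VE100 array. Calls were more frequent where the mean of the higher group exceeded the limit averaged over arrays (15.3%) than elsewhere (8.22%).

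Among named genes the highest difference was that of Igfbp1, and 3 genes that glucocorticoids are known to induce were among the 10 highest. Igfbp1, the insulin-repressed binding protein of insulin-like growth factors, rose by 2.76 ± 0.51 (SE). Fkbp5, a co-chaperone of the glucocorticoid receptor, rose by 2.36 ± 0.43, and Zbtb16, a transcriptional repressor with a glucocorticoid-induced promoter, by 2.54 ± 0.49. Tsc22d3, the gene of the anti-inflammatory protein GILZ, rose by 1.80 ± 0.39. Each of these 4 genes passed the criterion under all 16 alternative settings, and their adjusted p ran from 0.294 to 0.319.

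The letters before the Igfbp1 start are shown because the gene led the named genes and its insulin response element is a textbook binding site of FOXO1. The capitals mark CAAAACA, the core of that element, at position -108 counted from the transcript start. The sequence is from RefSeq (GRCm38.p6, chr11:7197537-7197786, plus strand).
Igfbp1: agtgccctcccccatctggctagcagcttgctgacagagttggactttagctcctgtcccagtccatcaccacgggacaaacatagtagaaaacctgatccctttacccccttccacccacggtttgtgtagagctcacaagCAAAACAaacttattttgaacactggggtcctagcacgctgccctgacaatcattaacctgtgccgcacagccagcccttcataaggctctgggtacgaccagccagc
Searched on both strands, CAAAACA was present in 5.56% of the 32851 RefSeq windows of 250 bases before a start. Of the 22 measured genes of insulin, IGF and FOXO1 signalling, 20 had a window, and 3 of them held the letters (Igfbp1, Irs1 and Irs2). Genes were counted if any of their windows held the letters, so the count is not directly comparable with the share of windows.

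Igfbp1 signal was 6.52, 6.59 and 4.81 on vehicle arrays 1 to 3 and 8.13, 8.94 and 9.13 on VE100 arrays 1 to 3. All VE100 arrays were higher, as its choice required, and the vehicle spread came mostly from the low value of vehicle 3. Without that array the difference was 2.18. At the lower dose the signal was 7.76, 6.63 and 6.60, a difference from vehicle of 1.02 ± 0.51. The doses themselves differed by 1.74 ± 0.51, past the criterion, although Igfbp1 was 1 of 625 probe sets (2.93%) for which VE100 and VE50 differed so.

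Fkbp5 signal was 11.53, 10.90 and 11.28 in vehicle and 12.61, 14.44 and 13.74 in VE100. Zbtb16 was 8.50, 7.16 and 7.99 in vehicle and 10.32, 11.36 and 9.58 in VE100. Tsc22d3 was 9.52, 9.30 and 9.40 in vehicle and 10.79, 10.58 and 12.25 in VE100. None of the 3 genes overlapped between groups, as their choice required. Vehicle 3 lay within the range of the other vehicle arrays for each. The VE100 array that was highest differed, being VE100 2 for Fkbp5 and Zbtb16 and VE100 3 for Tsc22d3. The VE50 means lay between those of the groups for these genes, with differences from vehicle of 1.57 ± 0.43, 1.64 ± 0.49 and 1.16 ± 0.39.

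Over the whole list of the glucocorticoid receptor and genes it induces, 4 of 18 measured members rose and 0 fell (22.2% called, against 9.49% of all probe sets). Of the 18, 12 were above the negative controls, where 15.3% of probe sets were called. The list median was 0.62, against -0.01 over all probe sets. The fourth gene was Pck1, the rate-limiting enzyme of gluconeogenesis, at 0.72 ± 0.25; it did not pass without vehicle 3 (0.53), VE100 2 (0.61) or VE100 3 (0.63). Without vehicle 3 the list median was 0.00, 3 members rose and 1 fell, and without VE100 2 1 fell beside the 4 that rose. The receptor gene Nr3c1 lay at 0.27, and the metallothionein gene Mt2, which glucocorticoids also induce, lay at -2.48 without passing. The remaining members with lower signal were Mt1, Sgk1, Klf9, Cdkn1a and Fam107a, none of which passed.

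Genes of insulin signalling moved in both directions, and 11 of the 22 members were above the negative controls. Foxo1 itself, near background in vehicle, rose by 1.09 ± 0.30, with signals of 7.72, 7.95 and 7.52 in vehicle and 8.37, 9.02 and 9.07 in VE100. Irs2, an adaptor of the insulin receptor, not above background in either group, fell, with a difference of -0.84 ± 0.26, and read 6.80, 5.81 and 6.47 in vehicle and 5.35, 5.56 and 5.64 in VE100. Neither gene overlapped between groups, and both passed under all 16 alternatives. Akt2, an insulin-activated kinase of liver also not above background, fell at -1.18 ± 0.40 but did not pass without VE100 1 (-0.99). In all, 2 of 22 members rose (Igfbp1 and Foxo1) and 3 fell (22.7% called, against 9.49% of all probe sets). Without vehicle 3 the numbers were 3 and 8. The last of the 3 was Tsc1, an inhibitor of mTORC1, at -0.98 ± 0.41, which lost its call without vehicle 1 (-0.63), vehicle 2 (-0.87), VE100 1 (-1.06) or VE100 3 (-0.70). The insulin receptor gene Insr differed by 0.15 and did not pass.

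Glycogen synthase and a subunit that activates it were higher, while the last enzyme of glycolysis was lower. Gys2, the liver glycogen synthase, rose by 1.02 ± 0.24, with 11.32, 11.67 and 11.87 in vehicle and 12.95, 12.46 and 12.51 in VE100. Ppp1r3b, the phosphatase subunit that activates glycogen synthase, rose by 1.5 ± 0.24, with 11.24, 11.89 and 11.39 in vehicle and 12.93, 12.88 and 13.22 in VE100. All VE100 arrays exceeded all vehicle arrays for both genes. VE50 lay 1.0 and 0.98 above vehicle for them, and the difference between doses passed for neither.

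Pfkfb1, the liver enzyme that makes and degrades the glycolytic regulator fructose 2,6-bisphosphate, rose by 1.59 ± 0.29. Its signals were 11.88, 11.36 and 10.97 in vehicle and 12.67, 13.19 and 13.13 in VE100. Pklr, the liver pyruvate kinase, fell, with a difference of -1.09 ± 0.29 and signals of 14.98, 14.65 and 14.00 in vehicle and 13.11, 13.83 and 13.42 in VE100. Groups did not overlap for either gene. Both differed between the doses past the criterion, and VE50 lay at 0.56 and -0.08 from vehicle. Of the glycolysis and fructose list, 2 of 20 members rose and 2 fell, with a median of 0.06. Without vehicle 3, 5 fell, and 1 fell without vehicle 1, vehicle 2, VE50 3, VE100 1 or VE100 2. Pgam1, a phosphoglycerate mutase, was the other that fell, at -1.25 ± 0.52, and its call was lost without any of 5 arrays (vehicle 1, vehicle 2, VE50 3, VE100 1 or VE100 2, from -1.38 to -0.85). Of the glycogen list, 3 of 21 rose and 1 fell (4 without vehicle 3, 2 without vehicle 2 or VE100 3). Its share called was 19.0%, with a median of -0.03. Its remaining calls were low signals, of Ppp1r3g, another glycogen-targeting subunit, at 0.80 ± 0.28 (0.61 without VE100 1, not past the criterion), and Pygb, the brain form of glycogen phosphorylase, at -0.77 ± 0.22.

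Among the genes of gluconeogenesis and fasting, 3 of 16 rose and 0 fell (18.8%, against 9.49% of all probe sets), and the median was 0.25. Of the 16, 14 were above the negative controls, where 15.3% of probe sets were called. Besides Pck1, the genes that rose were Slc37a4, the glucose-6-phosphate transporter, at 1.07 ± 0.43 and Gpt, alanine aminotransferase, at 0.63 ± 0.26. All 3 calls were lost without vehicle 3, VE100 2 or VE100 3, where Slc37a4 lay at 0.67, 1.01 and 0.85 and Gpt at 0.57, 0.50 and 0.50. Gpt also lost its call without vehicle 2 (0.57). The median without vehicle 3 was -0.29, where 0 members rose and 2 fell, so the list turned direction on that array. Without VE100 2 or VE100 3, 0 rose and 0 fell.

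Both repressor arms of the circadian clock held genes that moved. Nr1d1, which encodes REV-ERB alpha, a repressor in the clock loop, fell, with a difference of -2.43 ± 0.30, and Cry1, a repressor of CLOCK and BMAL1, rose by 1.10 ± 0.24. Nr1d1 signal was 9.16, 8.44 and 8.55 in vehicle, 7.11, 7.38 and 6.91 in VE50 and 6.46, 6.65 and 5.74 in VE100. The 3 groups did not overlap, which the choice required for vehicle and VE100 only, and the doses differed past the criterion. Cry1, not above background in either group, had signals of 6.32, 6.56 and 6.82 in vehicle and 7.46, 7.54 and 8.01 in VE100. Its groups did not overlap either, and both genes passed under all 16 alternatives.

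The start regions of Cry1 and Per3 are printed because clock genes moved in both directions and these windows hold the elements that the clock proteins read. Capitals mark the E-box CACGTG, bound by CLOCK and BMAL1, in Cry1 (position -60) and the D-box TTATGNAA, bound by DBP, TEF, HLF and NFIL3, in Per3 (positions -205 and -158). Both are from RefSeq (GRCm38.p6), minus strand, at chr10:85185055-85185304 and chr4:151044666-151044915.
Cry1: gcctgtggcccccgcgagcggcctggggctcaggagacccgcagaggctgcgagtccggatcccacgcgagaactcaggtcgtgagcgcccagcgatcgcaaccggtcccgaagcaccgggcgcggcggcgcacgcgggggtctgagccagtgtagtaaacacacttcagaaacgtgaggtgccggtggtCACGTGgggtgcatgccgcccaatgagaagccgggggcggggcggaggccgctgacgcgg
Per3: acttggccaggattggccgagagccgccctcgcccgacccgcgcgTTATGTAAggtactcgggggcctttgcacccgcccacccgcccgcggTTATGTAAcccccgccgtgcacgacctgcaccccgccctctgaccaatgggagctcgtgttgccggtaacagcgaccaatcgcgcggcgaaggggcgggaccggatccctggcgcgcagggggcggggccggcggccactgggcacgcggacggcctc
On either strand, the E-box letters were in 6.02% of the 32851 windows and the D-box letters in 3.07%. Of the 27 clock genes measured, 23 had a window, 7 of them with an E-box and 3 with a D-box. A gene was counted if any of its windows held the letters, so gene counts and shares of windows are unlike measures.

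Of the 15 genes of the core clock loop, 3 rose and 1 fell (26.7%, against 9.49% of all probe sets), with a median of 0.21. Of the 15, 8 were above the negative controls, where 15.3% of probe sets were called. Per3, a period gene, rose by 1.10 ± 0.49 but passed under 4 of 16 alternatives, and it lay at 0.52 without vehicle 3. Arntl, which encodes BMAL1 and is a known target of REV-ERB alpha repression, lay at 0.06, and Clock, its partner, at -0.33. Without vehicle 3, 2 members rose and 3 fell, without vehicle 1 5 rose, and without VE100 2 or VE100 3 1 rose.

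Of 12 clock output genes, 4 rose and 0 fell (33.3%, against 9.49% of all probe sets), with a median of 0.41. The median was 0.00 without vehicle 3, where 3 rose and 2 fell, and without vehicle 1, 2 rose. Of the 12, 4 were above the negative controls. Nampt, the rate-limiting enzyme of NAD salvage, rose by 0.81 ± 0.21, from 9.75, 10.23 and 9.89 to 10.84, 10.64 and 10.82. Lonrf3, a RING finger gene, rose by 1.77 ± 0.29, from 5.23, 5.2 and 4.24 to 6.53, 6.43 and 7.01. Nfil3, a repressor at D-boxes, rose by 0.83 ± 0.27, from 5.76, 6.01 and 6.56 to 6.71, 7.37 and 6.73. The arrays of the groups did not overlap for these genes. Nfil3 differed by 0.02 from vehicle in VE50, and its difference between the doses passed, though its call against vehicle did not hold without vehicle 1 (0.65) or VE100 2 (0.61). Dbp lay at -0.04 and Tef at -0.08, neither past the criterion. The labels give a light and dark cycle, and no hour of tissue collection is given in the sources used here.

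The largest share of any list with at least 10 measured members was found among regulators of pre-mRNA splicing. Lists and members were chosen with earlier results of these data known, so this rank may depend in part on that choice. SR proteins and their relatives bind exons and recruit the spliceosome, and CLK kinases phosphorylate them. Of 44 measured genes of this kind, 22 rose and 0 fell (50.0%, against 5.12% of all probe sets higher), and 38 lay above 0. The median difference was 0.61, against -0.01 over all probe sets. Of the 44, 27 were above the negative controls, where 15.3% of probe sets were called in either direction. Leaving out any single array gave 15 to 25 members higher, 0 lower and a median of 0.43 to 0.84. Of the 22, 13 passed in every one of these 9 fits and under all 16 alternative settings, and 19 had a signal above the negative controls.

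Clk4, a CLK kinase, rose by 1.5 ± 0.25, with signals of 10.07, 9.89 and 9.91 in vehicle and 11.93, 11.19 and 11.25 in VE100. Luc7l2, a U1 snRNP-associated factor, rose by 1.65 ± 0.29, with 10.20, 10.92 and 10.16 in vehicle and 12.44, 12.17 and 11.62 in VE100. Rsrp1, an arginine and serine rich protein gene, rose by 1.94 ± 0.37, with 11.20, 12.02 and 10.44 in vehicle and 12.97, 13.14 and 13.37 in VE100. Every VE100 array lay above every vehicle array for these 3 genes, which the choice required for Luc7l2 and Rsrp1. Pnn, which encodes the speckle protein pinin, rose by 1.56 ± 0.33 without overlap of its arrays. Other members that rose, chosen for naming after their values were seen, were Luc7l3 (1.53 ± 0.35), Clk1 (1.15 ± 0.28), Luc7l (1.11 ± 0.27), Rbm39 (1.10 ± 0.26), Rbm5 (0.93 ± 0.25), Srsf2 (0.92 ± 0.29), Prpf4b (0.91 ± 0.21), Ccnl1 (0.91 ± 0.27) and Son (0.65 ± 0.20). Those 9 and the 4 before them are the 13 that passed in every fit.

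Among the SR proteins proper, Srsf1 rose by 0.61 ± 0.21, Srsf4 by 0.81 ± 0.33 and Srsf5 by 1.10 ± 0.48, again named after their values were seen. Srsf1 lost its call without vehicle 1 (0.48) or VE100 1 (0.53), Srsf4 without vehicle 3 (0.42), VE100 1 (0.77) or VE100 3 (0.72), and Srsf5 without vehicle 3 (0.51), VE50 3 (1.10), VE100 1 (1.05) or VE100 2 (0.94). Srsf6, Srsf9 and Tra2b lay at -0.09, -0.14 and -0.03 and did not pass. The kinase gene Srpk2 lay lowest, at -0.14 ± 0.22. VE50 lay above vehicle for 40 of the 44 members, with a median of 0.50, and 17 passed the criterion there. The 2 comparisons share the vehicle arrays. For 0 of the 44 did the doses differ past the criterion.

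**Figure D2:**
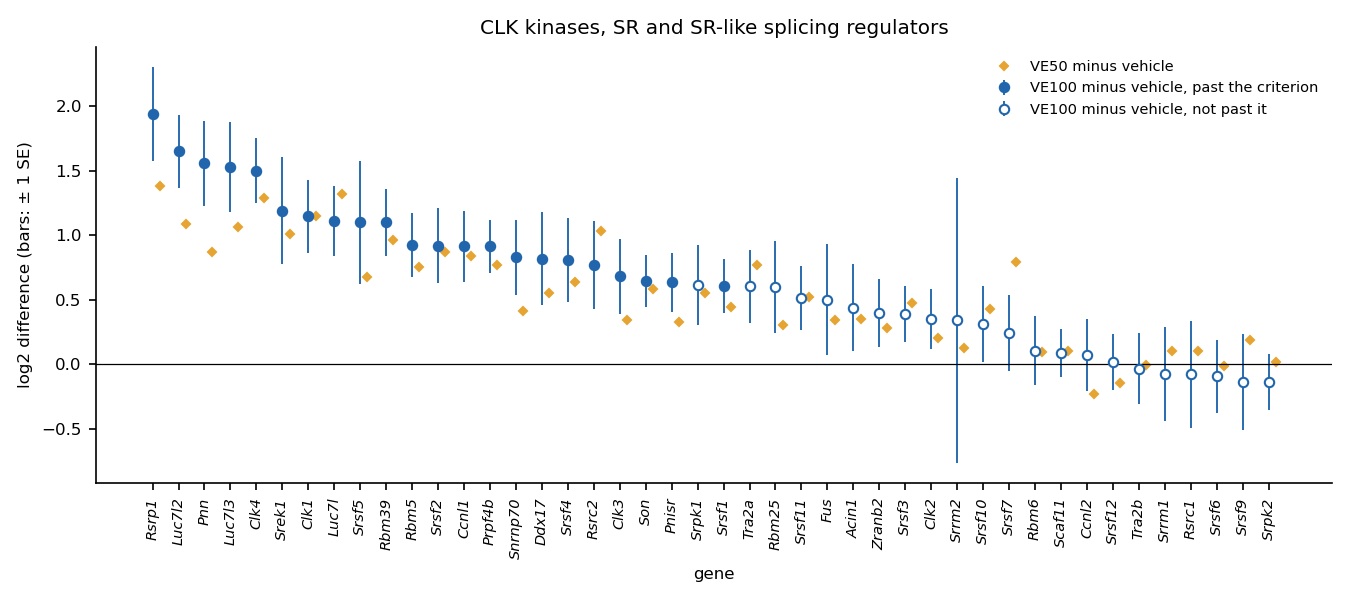
The 44 splicing regulators are ordered by their log2 difference between VE100 and vehicle (blue circles, bars ± 1 SE, filled where past the study's criterion), with VE50 minus vehicle as yellow diamonds. The 22 filled circles are all above 0, and the VE50 values follow at a median of 0.50.

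By array, the median deviation of the splicing list from the mean of all 9 arrays was -0.30, -0.08 and -0.79 on vehicle 1, 2 and 3, and 0.34, 0.15 and 0.22 on VE100. Vehicle 3 was lowest, and no VE100 array reached down to a vehicle array. Splicing factors of the hnRNP family, which often oppose SR proteins, gave 4 higher and 0 lower of 25 (16.0%, against 9.49% of all probe sets). Of the 25, 19 were above the negative controls, where 15.3% of probe sets were called. The median was -0.01, and the counts were 6 and 3 without vehicle 3 and 2 and 0 without VE100 1. Hnrnpu rose by 0.67 ± 0.21, from 12.49, 12.59 and 12.47 to 13.23, 13.14 and 13.19. Of the 15 highest differences, Safb2, a nuclear matrix protein gene (1.65 ± 0.37), and the 2 splicing genes Rsrp1 and Luc7l2 also encode nuclear RNA-binding or speckle proteins.

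Several tubulin genes fell. Of the 13 alpha, beta and gamma tubulin genes measured, 6 fell and 0 rose, and 11 lay below 0, against 4.37% of all probe sets lower past the criterion. These 13 were split off later from a list of 20, which gave 6 lower and 2 higher. Tubulins form microtubules, and their mRNAs are known to be degraded when free tubulin dimers rise. Tuba1b signal was 10.82, 10.05 and 8.49 in vehicle and 7.72, 7.10 and 8.04 in VE100, a difference of -2.17 ± 0.50. Tubb4b was 9.03, 8.98 and 7.93 in vehicle and 6.93, 6.00 and 6.78 in VE100, a difference of -2.08 ± 0.42. Tuba1c was 16.30, 15.66 and 14.63 in vehicle and 14.22, 12.76 and 14.04 in VE100, a difference of -1.86 ± 0.47. No arrays overlapped for these 3 genes, as their choice required, and vehicle 3 was the vehicle array nearest to VE100 in each.

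Tuba4a fell too, at -1.73 ± 0.55 with overlapping arrays. So did Tubb5 (-1.23 ± 0.40) and Tuba1a (-1.03 ± 0.33), both named after their values were seen; Tuba1a did not pass without vehicle 1 (-0.74) or VE100 2 (-0.82). Tubb2a lay at -2.05 and did not pass. Of the tubulin-folding cofactors, Tbca rose by 0.83 ± 0.34 and Tbce by 0.81 ± 0.32, while Tbcb, Tbcc and Tbcd did not pass. The delta and epsilon tubulin genes Tubd1 and Tube1 did not pass either. Tbca lost its call without vehicle 1 (0.58), vehicle 2 (0.69), VE100 1 (0.66) or VE100 2 (0.87), and Tbce without vehicle 2 (0.80), vehicle 3 (0.72) or VE100 1 (0.42). With the cofactors and the delta and epsilon tubulin genes, the list had 6 of 20 lower, 2 higher and a median of -0.43. Leaving out 1 array gave 5 to 8 lower, with 0 higher without vehicle 2 or VE100 1 and 1 higher without vehicle 1 or VE100 2. Between the doses Tubb4b differed by -1.67 ± 0.42, past the criterion, while Tuba1b and Tuba1c did not pass. Alpha tubulins are near-identical in sequence, and how the probe sets divide them is not given in the sources used here. Of 25 actins and actin regulators, 2 fell and 0 rose (8.0%, against 9.49% of all probe sets). Those that fell were Actn4 at -1.11 ± 0.29 and Tmsb4x at -1.52 ± 0.57. Tmsb4x did not pass without vehicle 3 (-1.0) or VE100 3 (-1.20). Without vehicle 3 the list had 7 lower and 1 higher, and without VE100 3 it had 1 lower.

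Eef1b2, a subunit of translation elongation factor 1, had the smallest p of all single-symbol probe sets, and fell. Its signals were 15.62, 15.37 and 15.27 in vehicle, 14.86, 14.89 and 14.23 in VE50 and 13.35, 13.51 and 13.54 in VE100. The groups were separate in that order, which the choice required for vehicle and VE100 only. The differences were -1.95 ± 0.23 from vehicle (adjusted p = 0.0868) and -1.19 ± 0.23 from VE50. Eif3i (-0.91 ± 0.21) and Eif2s3x (-0.95 ± 0.27), initiation factor subunits, also fell under all 16 alternatives. In total 4 of 45 translation factors fell and 3 rose (15.6%, against 9.49% of all probe sets), with a median of -0.01. Of the 45, 35 were above the negative controls, where 15.3% of probe sets were called. Without vehicle 3, 10 fell, and 1 rose without VE100 1 or VE100 3.

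Rpl41 and Rpl29, proteins of the large ribosomal subunit, fell, at -1.56 ± 0.35 and -1.37 ± 0.32. Rpl41 signal was 15.41, 15.26 and 14.99 in vehicle and 12.83, 14.04 and 14.11 in VE100. Rpl29 signal was 13.56, 13.29 and 12.96 in vehicle and 11.94, 11.49 and 12.27 in VE100. Arrays did not overlap for either, although the second Rpl29 probe set differed by -0.20 and did not pass. Among 62 ribosomal protein genes 4 fell and 2 rose (9.68%, against 9.49% of all probe sets). All 62 were above the negative controls, where 15.3% of probe sets were called. Without vehicle 3 the numbers were 3 and 12 and the median went from -0.14 to 0.15. Leaving out any other array but VE50 1 or VE50 3 gave 0 or 1 higher, and 2 lower without VE100 1. Many ribosomal and elongation factor genes have processed copies in the genome, which an array may not tell apart. Of 30 proteasome subunits 5 fell and 1 rose, but 0 fell without vehicle 1, 1 without vehicle 2, VE100 1 or VE100 3, 2 without VE50 1, and 3 without VE100 2, and without vehicle 3 7 fell and 6 rose. Of 75 subunits of the respiratory chain and ATP synthase 6 rose and 2 fell (10.7%, against 9.49% of all probe sets). Of the 75, 71 were above the negative controls, where 15.3% of probe sets were called. Ndufb7 and Ndufb3, subunits of complex I, rose by 0.97 ± 0.24 and 0.68 ± 0.21 under all 16 alternatives. Leaving out vehicle 3 gave 21 respiratory genes higher and 7 lower, and leaving out vehicle 1 gave 2 higher; 0 fell without VE50 1 or VE100 1, and 1 without VE50 2 or VE100 2.

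Of 19 genes of fatty acid synthesis 5 fell, and single arrays moved that number. Acaca, acetyl-CoA carboxylase, fell, from 12.33, 12.04 and 11.55 to 11.37, 10.69 and 10.08, a difference of -1.26 ± 0.40. Acly, ATP citrate lyase, fell from 16.47, 16.48 and 15.91 to 15.73, 15.05 and 14.21, a difference of -1.29 ± 0.44. Arrays did not overlap for either gene, and VE100 3 was the lowest in both. Without VE100 3 Acly lay at -0.90 and did not pass. Elovl6 and Elovl1, fatty acid elongases, fell at -1.62 ± 0.64 and -1.13 ± 0.45, but their arrays overlapped because vehicle 3 was low, at 14.39 against 17.01 and 17.05 for Elovl6. Both lost their call without vehicle 1, vehicle 2, VE100 1 or VE100 2, where Elovl6 lay at -1.19, -1.17, -1.63 and -1.30 and Elovl1 at -0.81, -0.84, -1.14 and -1.05; Elovl1 also did so without VE100 3 (-1.20). Over the list, 0 rose (26.3% called, against 9.49% of all probe sets), and the median was -0.71. Of the 19, 16 were above the negative controls, where 15.3% of probe sets were called. Without vehicle 1, vehicle 2, VE100 2 or VE100 3 the number that fell was 2, with medians of -0.10, -0.44, -0.95 and -0.25, and without vehicle 3 it was 9. The desaturase gene Scd1 did not pass, at a signal near 19.93, the top of the range on these arrays, and Mlxipl, which encodes the glucose-sensing activator ChREBP, lay furthest the other way at 0.60 without passing.

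Triglyceride genes moved both ways. G0s2, an inhibitor of adipose triglyceride lipase, rose by 2.17 ± 0.49, from 8.52, 9.07 and 9.22 to 10.55, 12.49 and 10.28. Agpat2, an acyltransferase of phosphatidic acid synthesis, fell, from 14.23, 14.07 and 13.17 to 12.19, 13.10 and 12.93, a difference of -1.08 ± 0.33. Groups were apart for both genes, which the choice required for G0s2, where VE50 already stood 2.05 above vehicle. Of 29 genes of triglyceride assembly and lipid droplets, 2 rose and 2 fell (13.8%, against 9.49% of all probe sets). Without vehicle 3 the numbers were 2 and 5. Leaving out single arrays gave 1 to 5 higher, the most without VE100 1, and otherwise 1 or 2 lower. Of 23 cholesterol genes 0 passed, with a median of -0.27, and 6 fell without vehicle 3. In fatty acid oxidation 2 of 28 rose and 2 fell (14.3%, against 9.49% of all probe sets). Of the 28, 27 were above the negative controls, where 15.3% of probe sets were called. However, 1 rose and 8 fell without vehicle 3, 3 rose and 0 fell without vehicle 2, and 0 rose and 3 fell without VE100 2. In other fits 1 rose without vehicle 1 or any VE50 array, and 1 fell without VE100 3. Angptl4, an inhibitor of lipoprotein lipase, rose by 1.14 ± 0.37 (0.75 without VE100 2, not past the criterion).

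**Figure D3:**
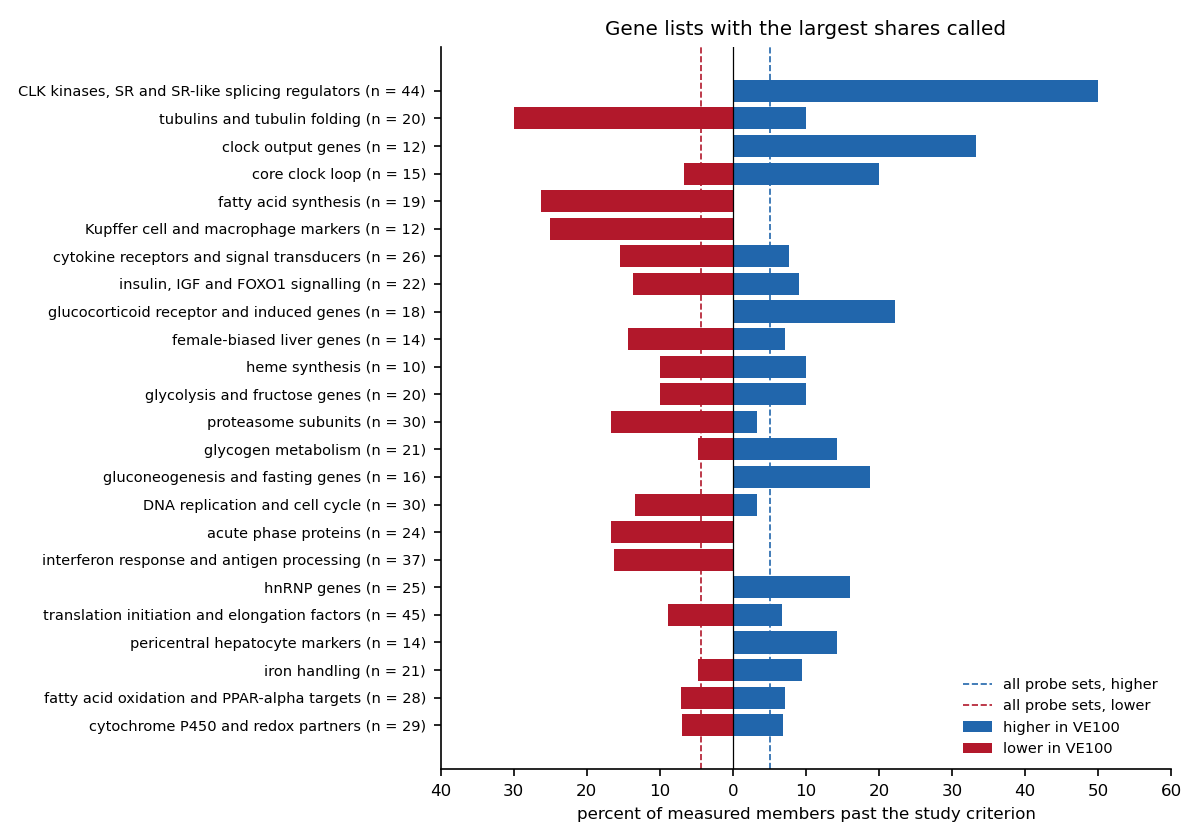
Bars give the percent of measured members past the study's criterion, higher to the right in blue and lower to the left in red, for the 24 lists with the largest shares among the 54 with at least 10 measured members. Dashed lines mark all single-symbol probe sets, 5.12% higher and 4.37% lower. Splicing regulators reach 50.0%, all higher, and tubulins with their folding factors 40.0% in both directions. The lists were chosen with earlier results of these data known.

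Por, the reductase that passes electrons to microsomal cytochromes P450, rose by 2.27 ± 0.52. Its signals were 14.33, 14.62 and 12.28 in vehicle and 15.55, 16.25 and 16.24 in VE100. Groups did not overlap, as the choice required, and without the low vehicle 3 the difference was 1.54. The xenobiotic receptor gene Nr1i2 (PXR) rose by 0.95 ± 0.31 under all 16 alternatives, and Nr1i3 (CAR) by 1.49 ± 0.56, not past the criterion without vehicle 3 (0.87), VE100 1 (1.51) or VE100 2 (1.39). Of 29 P450 and redox partner genes 2 rose and 2 fell (13.8%, against 9.49% of all probe sets). Of the 29, 27 were above the negative controls, where 15.3% of probe sets were called. Without vehicle 3, 6 fell, without vehicle 1, 0 fell, and without vehicle 2, 5 rose. The riser besides Por was Cyp39a1, an oxysterol hydroxylase, at 1.51 ± 0.41. Cyb5r3, cytochrome b5 reductase, fell at -2.09 ± 0.74. Its signals were 18.15, 17.46 and 14.50 in vehicle and 14.70, 14.53 and 14.61 in VE100, so vehicle 3 resembled VE100. The call was lost without vehicle 1 (-1.37) or vehicle 2 (-1.71).

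Single detoxification and antioxidant genes fell, while the shares of their lists were near that of all probe sets. Most members of phase II conjugation (26 of 29) and of the NRF2 list (20 of 25) were above the negative controls. There, 15.3% of probe sets were called. Hmox1, heme oxygenase 1, fell from 9.41, 9.35 and 9.50 to 8.33, 8.05 and 7.75, a difference of -1.38 ± 0.34. Its arrays did not overlap, and vehicle 3 was the highest vehicle array. Gstt1, a glutathione transferase, fell at -1.03 ± 0.29, and Gclc, the catalytic subunit of glutathione synthesis, at -1.26 ± 0.40 with overlapping arrays. Phase II conjugation had 2 of 29 lower and 0 higher (6.90% called, below the 9.49% of all probe sets), with 5 lower without vehicle 3 or VE100 1. NRF2 targets and glutathione synthesis had 3 of 25 lower and 0 higher, 12.0% called, with a median of -0.30; 11 were lower without vehicle 3, 5 without VE100 1, and 2 lower with 2 higher without VE100 3.

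Of 12 Kupffer cell and macrophage markers 3 fell and 0 rose (25.0%, against 9.49% of all probe sets), and 2 of the 12 were above the negative controls. In whole liver RNA, fewer cells of a type and less RNA per cell cannot be told apart. Cd5l, a secreted protein of Kupffer cells, fell from 9.63, 9.0 and 10.44 to 8.19, 8.10 and 6.40, a difference of -2.13 ± 0.64. Adgre1, a macrophage surface receptor gene not above background in either group, fell from 6.67, 6.44 and 7.49 to 5.99, 5.83 and 5.64, a difference of -1.05 ± 0.28. Arrays did not overlap for these 2 genes, which the choice required for Cd5l. Mpeg1, a macrophage pore-forming protein, fell at -1.18 ± 0.42 (not past the criterion without vehicle 1, -0.96, or VE100 3, -0.84). Of the 12 markers 11 lay below 0, and the median was -0.80. The number that fell was 7 without vehicle 3, 5 without VE50 1 or VE50 3 and 2 without VE100 3, and the median stayed between -1.02 and -0.58. The Kupffer lectin Clec4f lay at 0.15 and the scavenger receptor gene Marco at -1.28, neither past the criterion.

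Spi1, which encodes the myeloid master regulator PU.1, fell by 2.40 on the log2 scale, from 10.19, 9.85 and 8.49 to 7.55, 7.16 and 6.61. Tnfrsf1a, the main receptor of tumour necrosis factor, fell from 11.42, 10.59 and 8.31 to 7.88, 8.06 and 7.73, a difference of -2.22 ± 0.69. Litaf, a gene induced by lipopolysaccharide, fell from 10.61, 9.68 and 8.96 to 8.19, 7.83 and 7.49, a difference of -1.91 ± 0.45. In all 3 genes vehicle 3 was the lowest vehicle array yet still above the VE100 arrays, as the choice required. Il6ra, the interleukin 6 receptor, rose by 2.13 ± 0.46, from 8.22, 8.10 and 7.22 to 8.97, 10.66 and 10.29. Its coreceptor Il6st, named after its value was seen, fell at -1.09 ± 0.44 (not past the criterion without vehicle 1, -0.63, vehicle 2, -1.03, or VE100 1, -0.81). Of 26 cytokine receptors and signal transducers, 2 rose and 4 fell (23.1%, against 9.49% of all probe sets). Without vehicle 3, 9 fell, without vehicle 2, 2 fell, and without vehicle 1 or VE100 3, 1 rose.

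Interferon and antigen processing genes had 6 of 37 lower and 0 higher (16.2%, against 9.49% of all probe sets), with 31 below 0 and a median of -0.23. Of the 37, 6 were above the negative controls. Xaf1, an interferon-induced apoptosis gene not among those 6, fell at -1.06 ± 0.29 under all 16 alternatives. The number lower was 3 without vehicle 2 or VE100 2 and 2 without VE100 3. Acute phase proteins had 4 of 24 lower and 0 higher (16.7%, against 9.49%). Of the 24, 21 were above the negative controls, where 15.3% of probe sets were called. Saa4, the constitutive serum amyloid A, fell from 16.72, 17.05 and 16.15 to 14.09, 15.20 and 15.87, a difference of -1.59 ± 0.45. Lbp, the lipopolysaccharide-binding protein, fell from 11.53, 11.40 and 11.03 to 9.53, 10.76 and 10.27, a difference of -1.13 ± 0.36 (-0.80 without VE100 1, not past the criterion). Neither gene overlapped. The inducible Saa2 read 10.61, 11.81 and 18.75 in vehicle and 11.41, 9.46 and 7.84 in VE100. Its difference of -4.15 ± 1.73 rested on vehicle 3, without which it was -1.64, and the call was also lost without VE50 2 (-4.15), VE100 2 (-4.10) or VE100 3 (-3.29). The list median was -0.39, and -0.06 without vehicle 3, where 2 members rose and 2 fell.

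**Figure D4:**
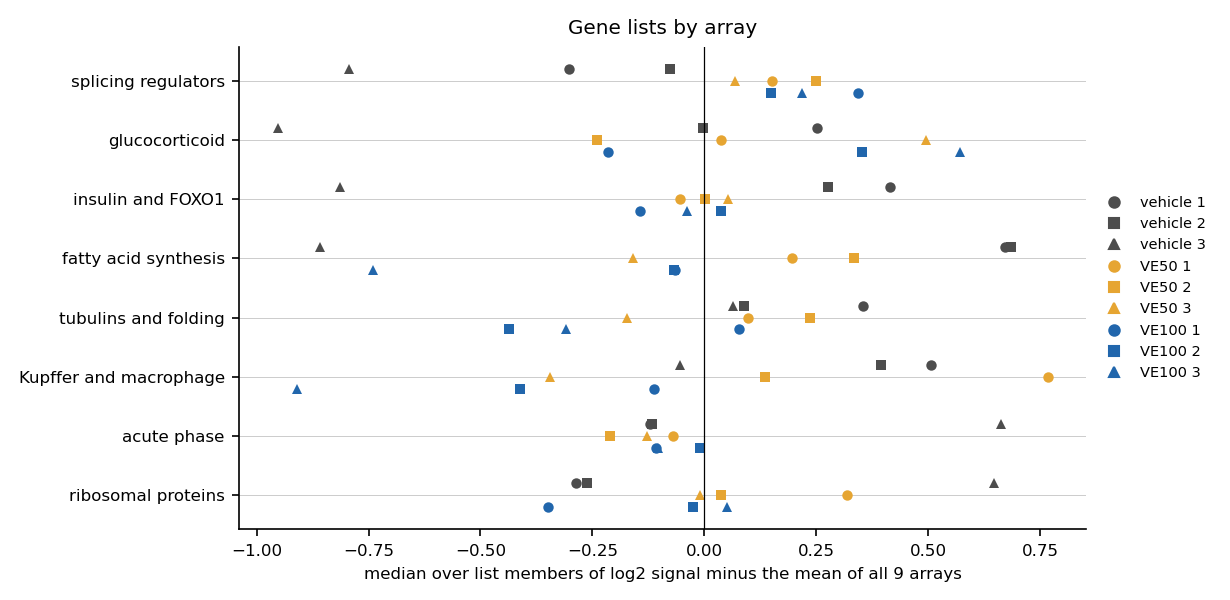
For 8 lists, each symbol gives the median over members of log2 signal less the mean of all 9 arrays, by array (grey vehicle, yellow VE50, blue VE100; circle, square and triangle for arrays 1 to 3). Splicing regulators and macrophage markers separate vehicle from VE100 without overlap. Vehicle 3 is lowest among vehicle arrays for every list but acute phase and ribosomal proteins, where it is highest.

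Several other genes stood at the extremes, and 28 of the 30 named as highest or lowest passed under all 16 alternatives. Pik3c2g, a liver class II phosphoinositide 3-kinase, rose by 1.75 ± 0.36, from 8.88, 9.26 and 8.18 to 10.69, 11.03 and 9.84. Erdr1 rose by 2.08 ± 0.34, Ptms, which encodes parathymosin, by 1.83 ± 0.43, Glt1d1 by 1.69 ± 0.38 and Fam214a by 1.65 ± 0.45. St6gal1, the sialyltransferase that caps N-glycans of liver glycoproteins, fell from 9.35, 8.77 and 8.52 to 7.42, 6.89 and 6.81, a difference of -1.84 ± 0.31. Mlec, a lectin of the endoplasmic reticulum that binds glucosylated N-glycans, fell from 13.38, 13.68 and 12.45 to 11.49, 10.94 and 11.69, a difference of -1.80 ± 0.39. No arrays overlapped in these genes, which the naming rule requires. Arrdc3, an alpha-arrestin, fell at -2.00 ± 0.65 and Isoc1 at -1.84 ± 0.43. The exceptions among the alternatives were Ly6d (-2.51 ± 0.86), a GPI-anchored surface protein gene not past the criterion without VE100 3 (-1.59), and Dhrs1 (-1.88 ± 0.64), not past it without vehicle 1 (-1.42) or VE100 1 (-1.65). A second probe set of Pik3c2g lay at 0.87 and did not pass.

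**Figure D5:**
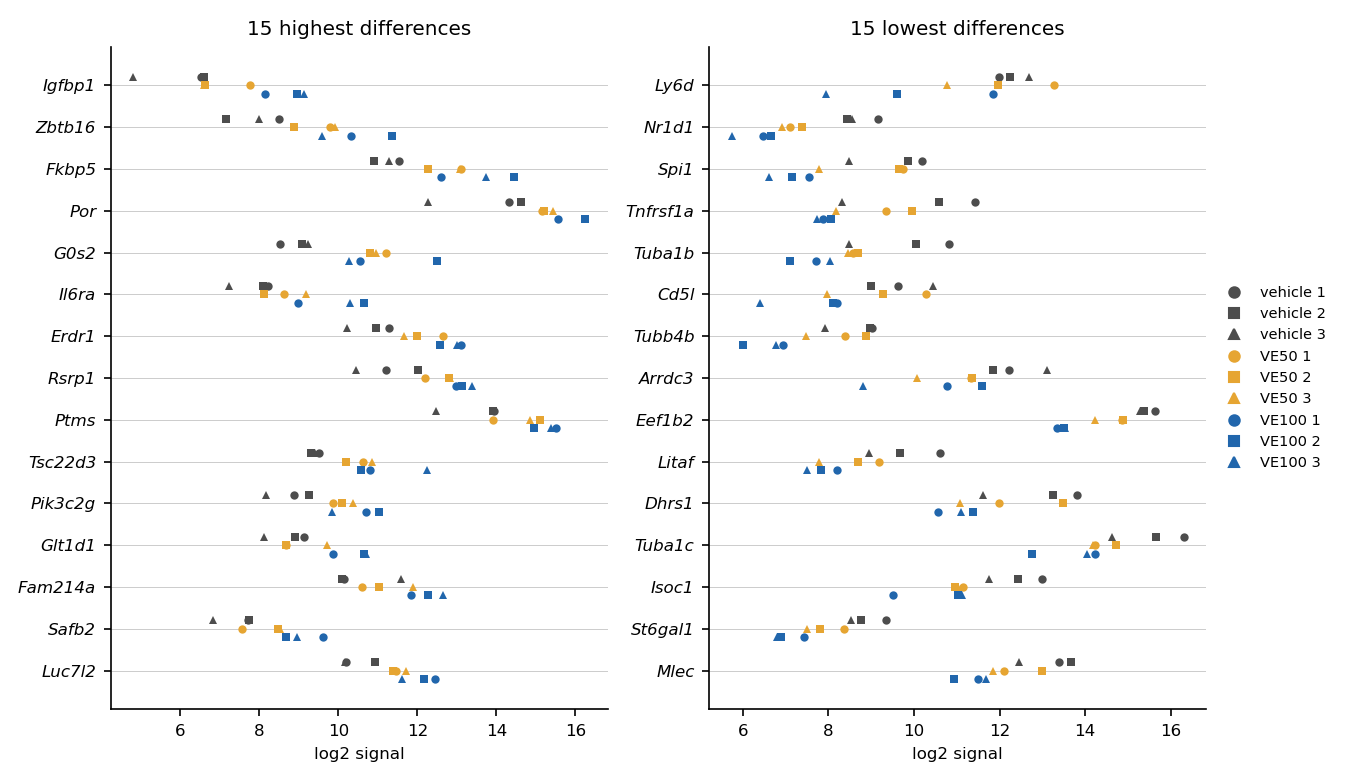
Log2 signal of the 15 highest and 15 lowest differences, 1 symbol per array (grey vehicle, yellow VE50, blue VE100). Blue and grey symbols do not overlap for any gene, as the choice requires. The VE50 mean lies between the 2 group means for each gene, but single yellow symbols often lie within the range of 1 group, as for G0s2.

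The 9 hepatocyte markers, all with signals above the negative controls as the labelled tissue requires, differed by -0.03 to 0.16, with 0 past the criterion. Markers of neutrophils, B cells, stellate cells, cholangiocytes, adipocytes and exocrine pancreas had 0 past the criterion, with medians of -0.18 to 0.00. Above the negative controls were 1 of 10 stellate, 1 of 6 cholangiocyte and 1 of 6 adipocyte markers, and 0 of the others. The lack of calls therefore says little about these cells. T cell markers had 2 of 6 higher, erythroid markers 1 of 3, endothelial markers 1 of 10 and muscle markers 1 of 6, at signals below the negative control level. Also without calls were male-biased liver genes (16 measured), bile acid genes (23), apolipoproteins (18), the methionine cycle (26) and extracellular matrix genes (27). Without vehicle 3, 4 male-biased genes rose and 4 matrix genes fell.

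The doses could be compared directly. Of the 2025 probe sets past the criterion for VE100, 247 (12.2%) also differed between VE100 and VE50, against 2.93% of all probe sets; both comparisons use the VE100 arrays, so these shares are not independent. The 30 named extremes were chosen for their distance between VE100 and vehicle, and VE50 is set against the same vehicle arrays. That the VE50 mean lay between for all 30 follows largely from the choice. The difference between doses passed for 14 of them. Spi1 was 9.75, 9.65 and 7.79 in VE50, a difference from vehicle of -0.45 ± 0.57. Glt1d1 was 8.67, 8.67 and 9.70 in VE50, a difference from vehicle of 0.30 ± 0.38. Both genes differed between the doses past the criterion, by -1.96 ± 0.57 for Spi1 and 1.39 ± 0.38 for Glt1d1. By contrast G0s2 and Gys2 stood nearly as far from vehicle at the lower dose, with differences between doses of 0.12 ± 0.49 and 0.02 ± 0.24.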

How the data were processed

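Liver RNA was hybridised to Clariom S mouse arrays, 1 array per sample. The deposited log2 signals were made by the authors in TAC with SST-RMA, per the series' design text. The authors' deposited table of filtered genes also gives p-values and a signed fold score, used here only to count its genes and to compare them with the calls. limma 3.58.1 in R 4.3.3 was fitted to all 9 arrays with the groups as the only term, and p-values were adjusted over 22206 probe sets. The labels do not say that arrays came from separate animals, so p-values measure the spread between arrays, which may be technical. Members and lists were chosen with earlier results of these data known. Named genes were the 15 highest and 15 lowest differences past the criterion with no overlap of arrays and a mean in the higher group above the 95th percentile of the negative controls, averaged over arrays, both taken from the deposited log2 value table; and of each list, up to 4 members of smallest p past the criterion and the 1 lying furthest against its median. A list with no call gave its 2 members of smallest p. Predicted genes were counted and not named. Members named to complete a group were chosen after their values were seen. Alternatives left out each array, dim probe sets or all VE50 arrays, used array weights, a robust trend, centred arrays, the deposited value table or a replicate block. Replicate numbers did not pair the arrays (correlations of -0.13, 0.02 and -0.11). Promoter sequences are from RefSeq, GRCm38.p6. Some genes are not reported here.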

Additional observations from a re-analysis of the deposited data

How the results depend on the processing

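Lists and named genes were refitted under each alternative, except that without dim probe sets 63 of 64 lists and 189 of 210 named genes could be. No named gene past the criterion turned direction. The balance of higher and lower calls did turn without vehicle 3, over all single-symbol probe sets and in some lists. List medians also turned, as given below. After adjustment limma called 0 single-symbol probe sets (2105 of all probe sets passed the unadjusted criterion), but 118 with array weights, 1 from the deposited value table, 280 without vehicle 3 and VE100 3 (an alternative chosen after seeing the data), and 0 to 416 on leaving out 1 array, the most without vehicle 3. The 2025 past the criterion became 3589 with array weights, 1274 without dim probe sets, 3439 without vehicle 3 and VE100 3, and 1551 to 3534 on leaving out 1 array. The 1093 higher became 665 without dim probe sets and 871 to 1476 on leaving out 1 array. The 932 lower became 1972 with array weights, 609 without dim probe sets, 2007 without vehicle 3 and VE100 3, and 680 to 2058 on leaving out 1 array. The 625 that differed between doses became 1226, 274, 1174 and 401 to 1201 in the same order. With a replicate block, 1865 passed the criterion (965 higher, 900 lower), 0 after adjustment and 614 between doses. The causes were not tested beyond what each alternative leaves out. The median of a list changed sign for 24 of 64 lists without vehicle 3, 10 to 16 without any other vehicle or VE100 array, and 0 with the block. With 3 arrays a group, precision is limited by their number.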

Other observations

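On a list of N-glycan transfer genes of the endoplasmic reticulum, every member lay below 0. The list was drawn up after Mlec had been seen among the lowest differences, so it is a description. Mlec, a lectin, is itself counted on it, so the numbers of the list depend in part on the value that prompted it. Of 13 genes measured, the oligosaccharyltransferase subunits and Mlec, 13 lay below 0, with a median of -0.72. Past the criterion 5 fell (38.5%, against 4.37% of all probe sets lower). Those 5 were Mlec (-1.80), the catalytic subunits Stt3a (-1.09) and Stt3b (-0.91), and the small subunits Ost4 (-1.06) and Ostc (-0.93). Each passed under all 16 alternatives, and all VE100 arrays lay below all vehicle arrays for each. The median was -0.54 for VE50 and -0.95 without vehicle 3, where 8 fell.

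Further lists, also drawn up after values were seen, covered the translocon, vesicle coats and nuclear RNA processing. Their shares called were 13.3%, 16.7% and 31.2%, against 9.49% of all probe sets. The 38.5% above counts Mlec, which prompted that list, so it is not a like comparison with them. Of 15 translocon and signal peptidase genes 1 rose and 1 fell, with a median of -0.08. Of 18 coat genes of COPI and COPII vesicles 3 fell and 0 rose, among them Sec24b, a cargo adaptor of COPII, at -0.92. Of 16 exon junction complex and polyadenylation genes 4 rose and 1 fell, with Pabpn1, a nuclear poly(A)-binding protein, at 1.29 and Rbm8a, a core junction protein, at 1.14, while Rnps1, another junction protein, fell at -0.79. Sec24b and Rnps1 exceeded the negative control limit on no array of either group.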
